A study of Mus musculus with 2 samples.

Results

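The genes described are 8 members of the machinery that hydroxylates and folds procollagen in the endoplasmic reticulum: P4ha1, P4ha2, P4hb, Plod1, Plod2, Plod3, Ero1a and Serpinh1. They were chosen by name. Every probe set of the array whose platform annotation lists 1 gene symbol, equal to 1 of these names (with the older Ero1l read as Ero1a), was taken, which gave 14 of the 45101 probe sets on the array. Of these, 13 passed the filter on low signal described below, so that all 8 genes were measured, among 11122 measured genes in all.

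The study put total RNA from embryoid bodies, the aggregates in which embryonic stem cells start to differentiate, on Affymetrix expression arrays, and asks which transcripts differ when the secreted growth factor FGF10 is present. Both groups were CGR8 mouse embryonic stem cells of strain 129, cultured free of feeders with serum and leukemia inhibitory factor and then aggregated in hanging drops. The control group had differentiation medium alone and the FGF10 group had the same medium with recombinant FGF10 protein at 100 ng/ml, with 1 array each. The sample labels give day 2, while the design text places RNA collection 24 h after treating embryoid bodies already 2 days old, so the exact stage is uncertain. A single cell line and a single culture per group stand behind every value.

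Since each group is a single array, nothing below carries a p-value, and how far separate cultures would differ is unknown. Each value is a MAS5 signal, Affymetrix's summary of the probes in a probe set, given on a linear scale. A ratio below is the log2 of FGF10 signal divided by control signal, centred by subtracting the median over probe sets that passed the filter (0.034), and a gene takes the ratio of its brightest passing probe set. The filter kept probe sets with a mean signal over both arrays of 76.35 or more, this limit being the median once chip controls are set aside. As a measure of error within the arrays only, the technical SD was taken from the disagreement between the 2 brightest probe sets of the same gene, over 5213 genes. It was 0.27 on the log2 scale over all of them, 0.41 in the dimmest of 5 equal signal groups and 0.19 in the brightest. The level of one probe set is not comparable with that of another, so genes are set side by side by their ratios only.

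As background, collagen chains are modified while still unfolded. Prolyl 4-hydroxylase, a tetramer of catalytic alpha subunits (P4HA) and of protein disulfide isomerase (P4HB), turns proline into 4-hydroxyproline, without which the triple helix is not stable at body temperature. Lysyl hydroxylases (the PLOD enzymes) hydroxylate lysine and so set the later crosslinks and sugar attachment, and both enzyme families need molecular oxygen, iron, 2-oxoglutarate and ascorbate. Disulfide bonds are formed by protein disulfide isomerases, which the oxidase ERO1A reoxidizes by passing electrons to oxygen, and SERPINH1 (HSP47) is the chaperone that binds the folded procollagen helix. In early mouse embryos the main collagen is the basement membrane type IV, much of it made by the extraembryonic endoderm.

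After centring, P4ha1 and Ero1a were 1.79- to 2.42-fold higher on the FGF10 array on each of their probe sets, while the other 6 genes lay within 1.5-fold. Folds below are centred in the same way. Of the 8 genes, 2 were at least 1.5-fold higher (a log2 ratio of 0.58 or more) and 0 were at least 1.5-fold lower. Over all measured genes, 5.41% were at least 1.5-fold higher and 4.86% lower. Both P4ha1 and Ero1a were also just past 2-fold, as were 1.32% of all genes upward and 1.29% downward. That limit was not robust: P4ha1 lay under it in 5 of 11 processing alternatives (0.84 to 0.99) and Ero1a in 1 (0.99, on its second brightest probe set). The median ratio of the 8 genes was 0.21, against -0.027 for all measured genes. The ratios of the other 6 ran from -0.21 to 0.36. The nearest values on either side of the 1.5-fold line were 0.84, for the dimmer P4ha1 probe set, and 0.36, for Plod1.

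**Figure D1:**
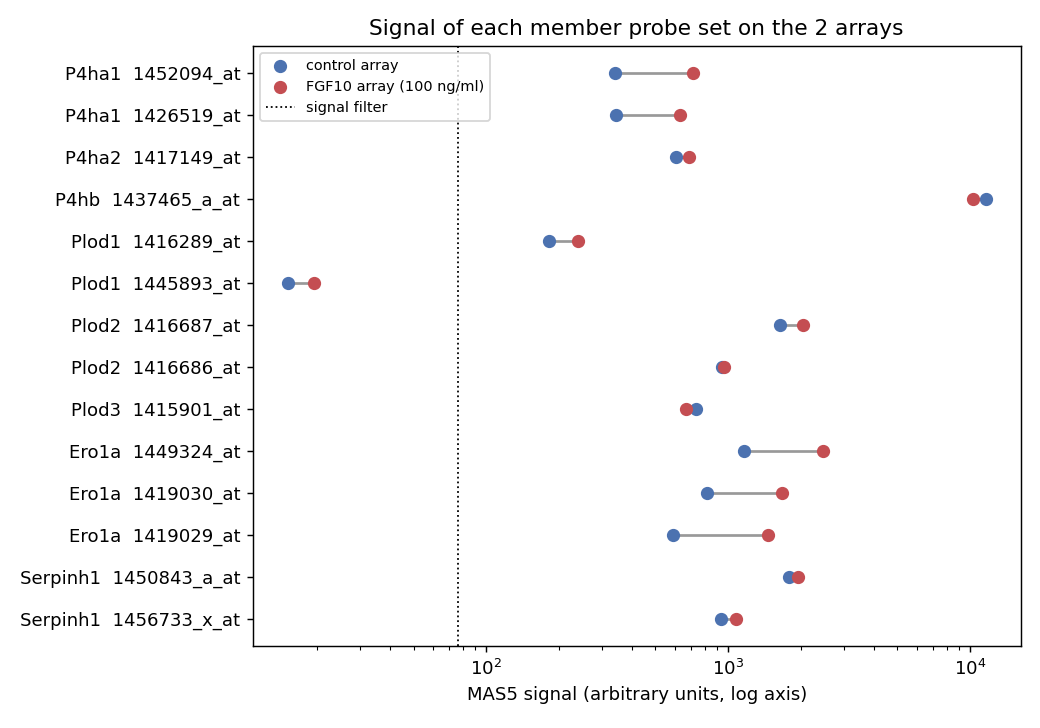
MAS5 signal (log axis) of each of the 14 member probe sets on the control array (blue) and the FGF10 array (red), joined by a line, with the signal filter of 76.35 dotted. The lines are long for the 2 probe sets of P4ha1 and the 3 of Ero1a, and short for all others, and 1 Plod1 probe set lies below the filter.

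The alpha subunits carry the active site of prolyl 4-hydroxylase. P4ha1, the main isoform in most mammalian tissues, had a control signal of 340.4 and an FGF10 signal of 714.7 on its brighter probe set (1452094_at), and 344.4 and 629.9 on the other (1426519_at). Both probe sets were higher with FGF10, at log2 ratios of 1.04 (2.05-fold) and 0.84 (1.79-fold), and differed from each other by 0.20, less than the technical SD of 0.27 for genes of this brightness. P4ha1 ranked 135 from the top of the 11122 genes.

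P4ha2, the second alpha isoform, which forms its own tetramer with P4HB, had signals of 607.9 and 688.5 on its only probe set (1417149_at). Its ratio was 0.15 (1.11-fold), within 1 technical SD of 0. The ratio of P4ha1 exceeded that of P4ha2 by 0.89, where the technical SD of such a difference was 0.39. The difference was not tested, as there are no replicates.

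P4hb encodes the disulfide isomerase that serves as the beta subunit of the same tetramer and also works as a free folding enzyme. Its only probe set (1437465_a_at) had signals of 11568.3 and 10240.6, far above background on both arrays and slightly lower with FGF10 (-0.21). The brightest of the 5 signal groups had a median ratio of -0.12, and with the ratio fitted against signal by loess the value for P4hb was -0.028. Thus the catalytic P4ha1 transcript differed by 1.79- to 2.05-fold between the arrays after centring, while the value for its partner subunit lay near that of other bright genes.

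Ero1a, the thiol oxidase that regenerates oxidized protein disulfide isomerase, was read by 3 probe sets. Signals went from 1161.2 to 2460.9 on the brightest (1449324_at), from 819.1 to 1668.7 on the next (1419030_at), and from 592 to 1464.9 on the dimmest (1419029_at). All 3 were higher with FGF10, with ratios of 1.05, 0.99 and 1.27, or 2.07-, 1.99- and 2.42-fold. The smallest of them is still over 4 times the technical SD of 0.23 for its signal range. Ero1a ranked 130 from the top, 5 places above P4ha1, and the ratios of the 2 genes differed by 0.013. The probe sets of Ero1a, like the 2 of Plod2, are annotated to 1 transcript sequence, so they are repeated readings of that transcript and not independent samples. Among the 4 members with at least 2 passing probe sets, P4ha1 and Ero1a had all of them at least 1.5-fold higher, as did 1.52% of all 5213 such genes.

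**Figure D2:**
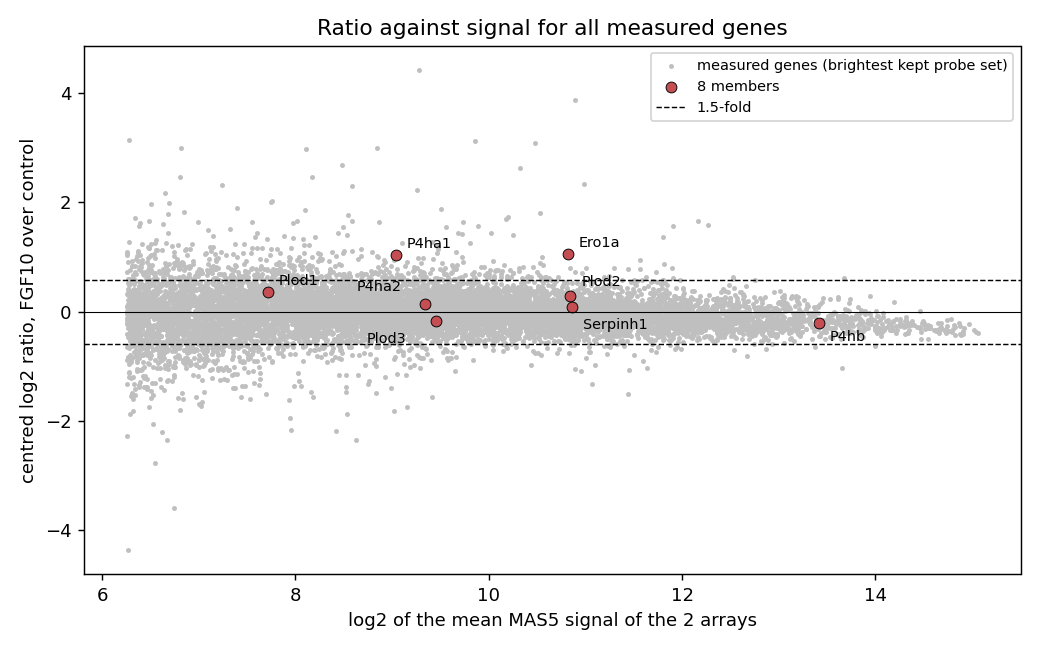
Centred log2 ratio (FGF10 over control) against the log2 mean signal for the 11122 measured genes (grey), with the 8 members in red and 1.5-fold dashed. P4ha1 (1.04) and Ero1a (1.05) lie above the 1.5-fold line and the other 6 members between the lines, and the spread of all genes narrows as the signal grows.

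The lysyl hydroxylases showed no difference past 1.5-fold. Plod1, which hydroxylates lysines of the triple helix, had signals of 182 and 238.6 on its brighter probe set (1416289_at), a ratio of 0.36 (1.28-fold) against a technical SD of 0.34. Its other probe set (1445893_at), at 15.1 and 19.4, was below the filter and may not be above background, so its ratio was not read.

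Plod2, the isoform that acts on the telopeptides at the ends of the chain, had signals of 1639.3 and 2041.2 on the brighter probe set (1416687_at) and 941.1 and 955.4 on the other (1416686_at). The ratios were 0.28 and -0.013, so the small excess on the first reading was not seen on the second, and they differed by 0.29, against a technical SD of a single ratio of 0.23.

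Plod3, which can also attach galactose and glucose to hydroxylysine and whose loss in mice disrupts type IV collagen, had signals of 732.2 and 667.7 on its only probe set (1415901_at). The ratio of -0.17 was under 1 technical SD from 0. Plod2 exceeded Plod3 by 0.45 and Plod1 exceeded Plod3 by 0.52, with technical SDs of these differences of 0.35 and 0.44, so the order of the 3 genes is not settled by these arrays.

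Serpinh1, the collagen chaperone, had signals of 1788.3 and 1944 on its brighter probe set (1450843_a_at) and 934.2 and 1071 on the other (1456733_x_at), which is of the type whose probes may match other transcripts. The ratios of 0.086 and 0.16 were both within 1 technical SD of 0. After centring, 10 of the 13 passing probe sets of the 8 genes were above 0, as were 49.9% of all passing probe sets of 1 gene, and 5 of the 13, those of P4ha1 and Ero1a, were past 1.5-fold upward, as were 6.68% of all. Since 4 of the genes have several passing probe sets, these are repeated readings of fewer genes.

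Hypoxia-inducible factor (HIF), the transcription factor that accumulates when oxygen is low, is known to act on P4ha1, Ero1a and, in many cell types, P4ha2, Plod1 and Plod2. Its binding core is the pentamer ACGTG or GCGTG. The promoter windows of the members, from 250 bases before to 50 after the annotated start in RefSeq (assembly GRCm38.p6), were searched for both pentamers on both strands. A CACGTG would count on both strands, and 0 of the member windows hold one. Of the 8 genes, 7 matched the promoter table, and Plod2 was not searched. The sequences upstream of the start of P4ha1 and Ero1a, the genes with the larger ratios, and of P4ha2, the isoform of P4ha1 with a ratio near 0, are given 5′ to 3′ along each gene's strand, with the pentamers (either strand) in capitals.
P4ha1, chr10:59323046-59323295, plus strand: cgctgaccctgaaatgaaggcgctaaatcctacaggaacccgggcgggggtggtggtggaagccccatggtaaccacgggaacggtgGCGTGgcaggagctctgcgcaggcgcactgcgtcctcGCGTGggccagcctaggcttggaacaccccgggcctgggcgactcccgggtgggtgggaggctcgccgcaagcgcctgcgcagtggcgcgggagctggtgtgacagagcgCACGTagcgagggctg
Ero1a, chr14:45318573-45318822, minus strand: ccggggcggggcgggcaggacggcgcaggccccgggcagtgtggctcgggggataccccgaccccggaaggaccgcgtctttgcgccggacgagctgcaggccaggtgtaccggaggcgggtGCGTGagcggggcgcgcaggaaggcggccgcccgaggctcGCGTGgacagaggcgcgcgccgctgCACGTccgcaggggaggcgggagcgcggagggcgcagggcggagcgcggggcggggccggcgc
P4ha2, chr11:54100674-54100923, plus strand: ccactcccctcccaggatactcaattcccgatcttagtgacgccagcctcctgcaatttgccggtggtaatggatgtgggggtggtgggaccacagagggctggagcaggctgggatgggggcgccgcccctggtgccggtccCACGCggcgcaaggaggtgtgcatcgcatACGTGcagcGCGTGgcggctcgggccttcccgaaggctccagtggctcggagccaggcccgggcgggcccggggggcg

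All 7 windows held at least 1 pentamer, as did 43.8% of the 32851 windows in the table. That share was not matched for G and C content, so the 2 shares are not a like comparison. P4ha1 and Ero1a each held 3, P4ha2 and Plod3 held 4, P4hb 3, Plod1 2 and Serpinh1 1. These counts cover the whole window, so an ACGTG of P4ha2 at 11 to 15 bases after the start is not in the sequence printed. The counts were not in the order of the ratios, as Plod3, with a ratio of -0.17, held more than either of the higher genes. They leave out Plod2 and all sequence outside these short windows. Whether such sites bear on the ratios was not tested. In P4ha1 the match nearest the start was an ACGTG on the opposite strand at -16 to -12, and the GCGTG matches lay at -163 to -159 and -126 to -122. In Ero1a the matches lay between -128 and -59. The windows of the members were rich in G and C, from 53.3% in Plod3 to 80.3% in Ero1a, and a match in such a short motif is a description of the letters, not a sign of binding.

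**Figure D3:**
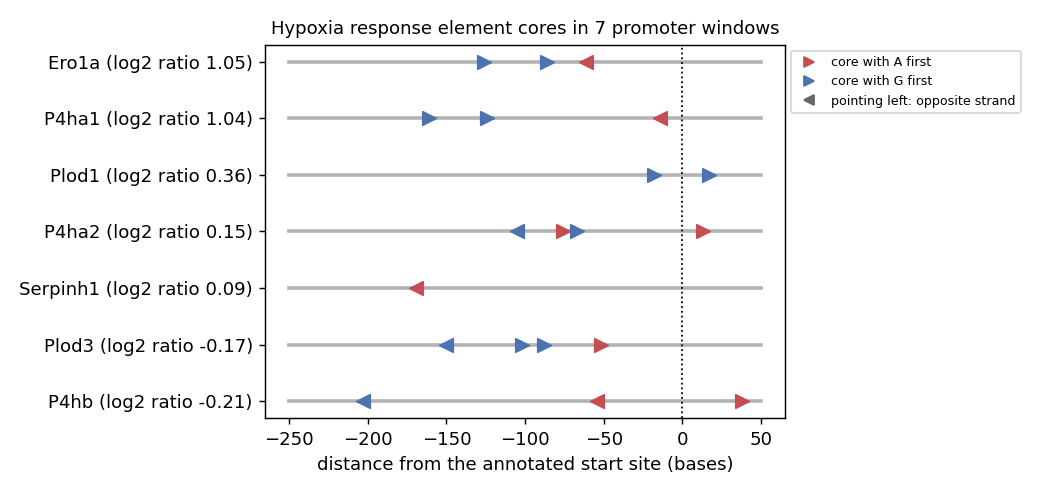
Position of ACGTG (red) and GCGTG (blue) matches relative to the annotated start site, in bases, in the 7 member promoter windows, ordered by log2 ratio from the highest at the top. Arrowheads pointing left are on the strand opposite the gene. Windows with 3 or 4 matches occur at the top, in the middle and at the bottom of the order.

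Other genes known to respond to hypoxia were set beside the members. In this list 15 of 27 genes passed 1.5-fold upward and 0 downward, the median ratio being 0.72, and the list was made knowing that such genes were higher on these arrays. With the filter applied to both arrays, 14 of 26 passed upward, around a median of 0.67. The 4 with the largest ratios were Ndrg1 (3.13), the glycolytic aldolase gene Aldoc (1.70), Egln1 (1.45), which encodes the prolyl hydroxylase that marks HIF for destruction, and Pfkfb3 (1.38), a regulator of glycolysis. The ratios of all 8 members fall inside the range of this list, which ran from -0.24 to 3.13. Most measured genes do too, as only 27.0% lay below P4hb, the lowest member, and 1.32% were past 2-fold upward. That range thus does not set P4ha1 and Ero1a apart. The ratios of P4ha1 and Ero1a were above the list median. Those of P4ha2, Plod1 and Plod2, also named as HIF targets, were below it, as were those of P4hb, Plod3 and Serpinh1.

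The other enzymes and helpers that modify and process procollagen did not share the ratio of P4ha1. Of 24 listed genes 14 were measured, of which 1 passed 1.5-fold upward and 0 downward, around a median of -0.20. The 1 higher gene was Adamts3, a procollagen peptidase, whose signals of 90.2 and 148.4 were dim (0.68). P3h1, a prolyl 3-hydroxylase, was at 0.52 with signals of 154.6 and 227.7. It works in a complex with the cyclophilin gene product of Ppib, which was at -0.40 (10706.8 and 8288.2), and with that of Crtap, also at -0.40 and named here for that partnership after its value was seen. Pcolce2, a procollagen peptidase enhancer, was at -0.56. The members of that complex thus had ratios on both sides of 0, none of them past 1.5-fold. Ppib is in the brightest signal group, where the median ratio was -0.12.

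Most oxidative folding genes other than Ero1a and P4hb lay within 1.5-fold. Among 23 such genes 2 passed 1.5-fold upward and 0 downward, around a median of -0.054. The 2 were Qsox2 (0.75), a sulfhydryl oxidase, and Creld1 (0.66), each read by 1 passing probe set. Ero1b, the paralogue of Ero1a, had signals of 133.4 and 148.1, a ratio of 0.12, and was named after its value was seen. Pdia4, a disulfide isomerase, was at -0.42 (854.5 and 654.3), and Tmx2, a thioredoxin-related membrane protein, at -0.37 on its brightest probe set and 0.011 on its other one.

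Chaperones and unfolded protein response genes gave no ratio past 1.5-fold. Of 21 measured, 0 were higher and 0 lower by that amount, and the median was -0.046. The largest ratios were those of Ddit3 (0.31), a stress-induced transcription factor, and of the abundant chaperone genes Canx (-0.27), Hspa5 (-0.26) and Calr (-0.26). Canx, Hspa5 and Calr lie in the brightest signal group, whose median ratio was -0.12. P4ha1, Ero1a and also Plod1 (0.36) lay above the range of the whole list, -0.27 to 0.31, a difference that was not tested. Of all measured genes, 87.2% had a ratio below that of Plod1, so a value above this narrow range is not rare.

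**Figure D4:**
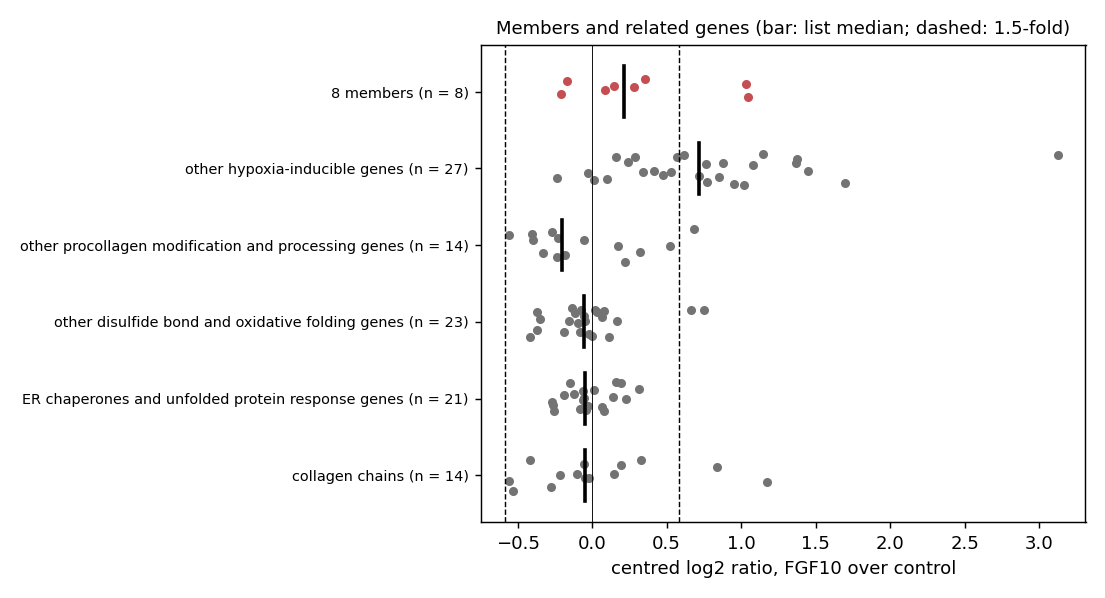
Centred log2 ratio (FGF10 over control) of each measured gene in the group of 8 and in 5 related lists, 1 point per gene, with the list median as a bar and 1.5-fold dashed. The medians are 0.21 for the 8 members, 0.72 for other hypoxia-inducible genes and between -0.20 and -0.046 for the other lists.

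The collagen chains, substrates of these enzymes, were mostly dim, and 14 of 32 were measured. Of these 2 passed 1.5-fold upward and 0 downward, around a median of -0.049. The 2 were Col4a5 (54.1 and 125, a ratio of 1.17, with 0.72 on its other probe set) and Col9a3 (100.2 and 183, 0.83). Both are dim, and the control signal of Col4a5 lay below the filter, so the size of its ratio is not known. With the filter applied to both arrays, 1 of 12 chains passed upward and 0 downward, around a median of -0.074. The chains of the common basement membrane heterotrimer, Col4a1 (4504.3 and 3808.9, -0.28) and Col4a2 (1552.5 and 1192.6, -0.41), named after their values were seen, had slightly lower signals with FGF10, though the other probe set of Col4a1 was at 0.049. The brightest signal group, which holds Col4a1, had a median ratio of -0.12. Col18a1, another basement membrane collagen, was at -0.56 (2014.3 and 1400.5), and Col9a1 at -0.53 on its brightest probe set and 0.31 on its other one.

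Marker genes were read for the cells an embryoid body can hold. All 10 markers of embryonic stem cells and epiblast were measured, with Pou5f1 at 8157.8 and 8787.2, and of these 0 passed 1.5-fold upward and 2 downward, Utf1 (-0.73) and Dppa5a (-1.03). Of 14 markers of parietal and visceral endoderm, all measured and none at 0, 2 passed 1.5-fold upward (Gata6 at 0.96 and Sox17 at 0.68, both also expressed in definitive endoderm) and 6 downward, around a median of -0.54. The lower ones were Apoa1 (-1.27), Hnf4a (-0.90, with 0.15 on another probe set), Cubn (-0.76), Ttr (-0.63), Sox7 (-0.61) and Dab2 (-0.59). Sox7 and Dab2 lay close to the limit. Over the processing alternatives the downward count ran from 2 (of 7 measured, at the 75th percentile filter) to 6. The genes in this paragraph were named after their values were seen. The summed signal of the 14, a sum in which the brightest probe sets weigh most, was 19496.6 in the control and 15704.4 with FGF10. Such sums are not centred. The sum of the 10 stem cell and epiblast markers was also lower, at 85523.8 and 78969.5, as was the sum over the whole array. Of 10 fibroblast and feeder markers only 3 passed the filter, Col1a2 (-0.22), Thy1 (-0.61) and Pdgfrb (1.97, with a control signal of 36.4, under the filter), with a summed signal over all 10 of 730.9 and 700.5, and Col1a1 was at 9.4 and 8. The part of these markers in the ratios of the members and of the collagen chains was not tested. In such bulk RNA, fewer cells of a type and less RNA per cell cannot be told apart.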

How the data were processed

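The authors deposited 1 MAS5 signal intensity per probe set and array, per the submitters' processing notes, with no version or settings; both arrays have a mean of 500.003 without their lowest and highest 2%, the form left by scaling to a common target. Of 45101 probe sets, 64 were chip controls, and 34945 had 1 gene in the platform annotation, 932 several and 9160 none listed. The filter kept 22524. Ratios, the fixed 1.5-fold and 2-fold limits and the technical SD are as given above, and no test was possible with 1 array per group. Each array is 1 sample, and the number of arrays limits the precision. The members, lists and alternatives were chosen with earlier results of these data known. Named genes are all 8 members and, from each related list, the 4 with the largest absolute ratio. Sequences come from RefSeq tables of GRCm38.p6; the array values name no build. The procedure was run on simulated arrays with planted log2 changes of 1.5 or 2 in either direction. These are larger than the member ratios, so the simulation does not show how well changes near the 1.5-fold limit are recovered. Python 3.11.15, numpy 2.4.6, pandas 2.3.3 and statsmodels 0.14.6 were used.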

Additional observations from a re-analysis of the deposited data

How the results depend on the processing

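Under 11 alternatives (no centring, quantile or loess normalization, an offset, no filter or 2 stricter ones, the mean or second probe set of a gene, leaving out _x_at and _s_at probe sets, and dim signals raised to the filter) 2 members were at least 1.5-fold higher and 0 lower in every case. A 2-fold limit gave 2 and 0 at the main setting. Across the alternatives, a combination added after seeing the data, it gave 0 to 2 higher: P4ha1 was under 2-fold in 5 of 11 (quantile, loess, the offset, the mean and the second probe set) and Ero1a in 1 (the second probe set). The median of the members stayed between 0.14 and 0.25. P4ha1 ranged from 0.84 to 1.07 and Ero1a from 0.99 to 1.10. The Plod2 value moved by more than its technical SD in 1 alternative, the second brightest probe set, where it was -0.013. P4hb ran from -0.22 to -0.028, nearest 0 with loess. At the 75th percentile filter Plod1 was not measured. Without the filter, 13.8% of all genes passed 1.5-fold upward and 15.9% downward, and 6 collagen chains were higher and 4 lower. The median of the chaperone list changed sign, to 0.038 with the mean over probe sets and 0.031 with the second probe set. No paired analysis was possible because each group has 1 sample. Signals near the filter limit what dim genes, such as most collagen chains, can show.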
